A study of Homo sapiens with 8 samples.

Results

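A large group of human tRNA genes lies on the short arm of chromosome 6, among histone genes at the edge of the major histocompatibility complex, and its DNA opening was followed in HEK293T cells after a short exposure to vitamin C (ascorbic acid). The members were the 144 RefSeq genes of biotype tRNA on chromosome 6 between 26 and 29.7 Mb (hg38), of 443 such genes on chromosomes 1 to 22 and X. A peak belonged to the cluster where at least 1 bp of it met one of these genes widened by 250 bp to each side. Some of these peaks lay beside a gene without reaching it, such as the peak of vitamin C replicate 1 at TRA-AGC2-1. This gave 95 and 96 peaks in the 2 vitamin C libraries, of 9816 and 9896 in their lists, and 99 and 99 peaks in the 2 control libraries, of 30351 and 24111.

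tRNA genes are read by RNA polymerase III. Their promoter lies inside the transcribed sequence as 2 short elements, the A box and the B box, which bind TFIIIC; TFIIIC then places TFIIIB upstream of the gene, and TFIIIB recruits the polymerase. Transcription stops at a run of T residues shortly behind the gene, and the same short unit is read again and again. Each gene is named for its amino acid letter and anticodon, and many genes of the cluster are copies of the same tRNA.

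HEK293T is an established human embryonic kidney line. Vitamin C cells received 0.5 mM vitamin C in the medium for 10 min and were then labelled for 10 min with 5 mM N3-kethoxal, and control cells were labelled in the same way without vitamin C. N3-kethoxal reacts with guanines that are not base paired, so that KAS-seq peaks mark opened, single-stranded DNA. Peaks came from 2 labelled libraries per condition, and the matching 4 inputs were not used here. Every title names HEK293T, although the number in the cell line field changes from sample to sample. Separate cultures are not stated for the replicates, so each p-value covers the spread between the libraries only, and this spread may be technical. The labelled depth solved from the deposited peak statistics was 1.22 and 0.871 fragments per position with vitamin C and 0.817 and 0.849 in the controls. Among the markers of the line reported here, SALL1 had a peak at a gene end in both controls and in neither vitamin C library, while PAX2, LIN28B, NEFL and NEFM had none; 0 of 10 marker genes of other cell types had one.

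Sequences of 4 members were at hand, because these genes lie whole within a RefSeq promoter window (GRCh38.p14) of a neighbouring gene. They are shown because they let the internal promoter be seen in genes whose widened window met a peak in all 4 lists. At TRL-AAG2-2 the peak of vitamin C replicate 1 (chr6:28943728-28943960) lay beside the gene and did not reach it. Capitals mark the core of the B box, searched as GTTCNANNC on both strands, and each sequence runs 5′ to 3′ on the strand that holds this match.

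TRI-TAT2-2: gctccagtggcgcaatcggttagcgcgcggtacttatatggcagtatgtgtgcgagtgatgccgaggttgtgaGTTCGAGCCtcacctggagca

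TRI-AAT8-1: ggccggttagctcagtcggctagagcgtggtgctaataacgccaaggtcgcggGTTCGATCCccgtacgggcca

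TRA-AGC2-2: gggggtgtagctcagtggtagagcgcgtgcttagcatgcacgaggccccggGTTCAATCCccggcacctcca

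TRL-AAG2-2: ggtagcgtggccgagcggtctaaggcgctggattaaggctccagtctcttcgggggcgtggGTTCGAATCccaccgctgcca

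These genes decode isoleucine (TRI-TAT2-2, chr6:27020346-27020439, plus strand, and TRI-AAT8-1, chr6:27668583-27668656, plus strand), alanine (TRA-AGC2-2, chr6:28863685-28863756, minus strand) and leucine (TRL-AAG2-2, chr6:28943622-28943703, minus strand). The B box core was found once in each, starting at base 74, 54, 52 and 62 of the gene in that order. Of 35116 promoter windows of 300 bases, 7.48% held the motif on either strand. The first run of 4 T residues began 4, 44, 7 and 11 bases behind the gene in the same order. The 4 genes are 94, 74, 72 and 82 bases long in this order, and tRNA genes for isoleucine with anticodon TAT are known to carry an intron.

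Most tRNA genes of the cluster were open in each library. Peaks met 108 and 109 of the 144 genes in the vitamin C lists and 113 and 114 in the control lists. The means were 108.5 ± 0.71 with vitamin C and 113.5 ± 0.71 in the controls (SD, n = 2 each), a difference of -5 genes. The groups did not overlap. With 2 libraries per group a two-sided exact permutation test cannot go below p = 0.333, the value found here. Among the 26 differences tested in this way the adjusted p of each difference at this limit was 0.394 (Benjamini-Hochberg). In lists of equal length, each cut to its 9816 peaks of lowest q, the difference was 0 genes.

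Gene by gene, 106 members had a peak in all 4 lists (kept), which is 73.6%, against 65.7% of all tRNA genes and 61.9% of those outside the cluster. Only TRV-AAC6-1, a valine tRNA gene, had peaks in both controls and in neither vitamin C list (lost); over all tRNA genes this pattern was found at 1.81%. The lost genes numbered 3 without vitamin C replicate 1, 3 without vitamin C replicate 2, 4 without control replicate 1 and 2 without control replicate 2. No member was gained, that is, had peaks in both vitamin C lists and in neither control, and over all tRNA genes the share gained was 0%. A further 9 genes had peaks in 1 to 3 lists in other combinations. The remaining 28 members (19.4%) had no peak in any list, against 28.2% of all tRNA genes.

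**Figure D1:**
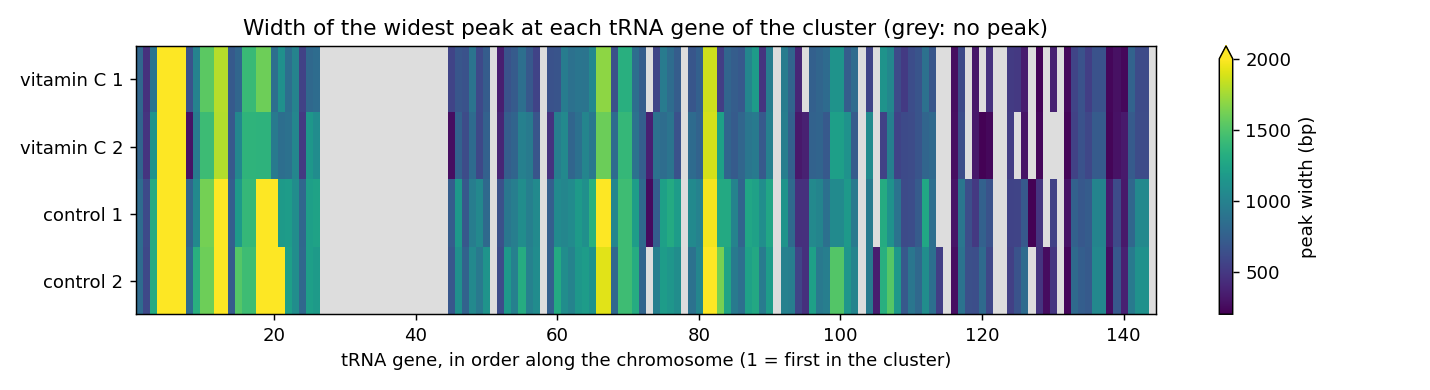
Width in bp of the widest peak at each of the 144 tRNA genes, in their order along the chromosome, with 1 row per library and grey where the gene had no peak, and the widest peaks share the top colour. The grey block of 18 neighbouring genes stands in all 4 rows. At 94 of the 106 genes with a peak in all rows (88.7%) both vitamin C peaks are narrower than both control peaks. The share is 88.7% over all kept tRNA genes and 70.9% over merged control regions met in all 4 lists.

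Of the 111 members with a peak in both controls, 106 (95.5%) had one in both vitamin C lists, and for tRNA genes outside the cluster the share was 95.4%. Over 15176 control regions (merged control peaks met by a peak in both control lists), 33.1% were met in both vitamin C lists and 42% in neither. The members formed 96 such regions, of which 91 were met in both vitamin C lists, 4 in 1 of them and 1 in neither. The cluster regions were strong in the controls: 82 of the 96 lay in the strongest 10% of all control regions by the rank of the authors' fold within each list. Among the 1303 regions of this strongest 10% that held no tRNA gene, 94.0% were met in both vitamin C lists. Their median percentile in the controls was 96.0, against 98.5 for all 96 cluster regions.

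The lead of the cluster over the tRNA genes elsewhere in the share of genes with a peak was about as large in both conditions. The sign of its small change depended on the peak threshold. Outside the cluster 97 of 299 genes (32.4%) had no peak in any list, among them neighbouring copies on chromosome 1 such as TRG-TCC2-2 and TRG-TCC2-3. Presence at such copies is uncertain, since the placement of their reads is not given, and its part in the lead was not tested. The cluster share was higher by 12.5 and 13.8 percentage points in the vitamin C libraries and by 11.9 and 13.3 points in the controls. The difference between conditions was 0.54 points, with an exact two-sided permutation p of 0.667, and leaving out vitamin C replicate 2 or control replicate 1 turned it to -0.14 points. With peaks of −log10 q of at least 5 the lead averaged 11.1 points with vitamin C and 13.2 points in the controls, a difference of -2.19 points without overlap of the groups (exact two-sided permutation p = 0.333).

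Peaks at tRNA genes made up a larger part of the peaks in the 3.7 Mb interval after vitamin C, where other peaks were fewer. The interval held 149 and 146 peaks with vitamin C and 191 and 186 in the controls. Peaks away from tRNA genes numbered 54 and 50 with vitamin C and 92 and 87 in the controls, a log2 ratio of -0.78. Over all peaks on chromosomes 1 to 22 and X the log2 ratio was -1.47. Peaks away from tRNA genes, and the parts of the interval below, were not recounted in lists of 1 length. Peaks at tRNA genes had a log2 ratio of -0.05, and of 0.02 once the lists were cut to 1 length. Their part of the interval was 63.8% and 65.8% with vitamin C and 51.8% and 53.2% in the controls. Of the whole list they were 0.968% and 0.970% with vitamin C and 0.326% and 0.411% in the controls, and the difference of 0.60 percentage points shrank to 0.02 once the lists were cut to 1 length. Each of these differences had an exact two-sided permutation p of 0.333.

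**Figure D2:**
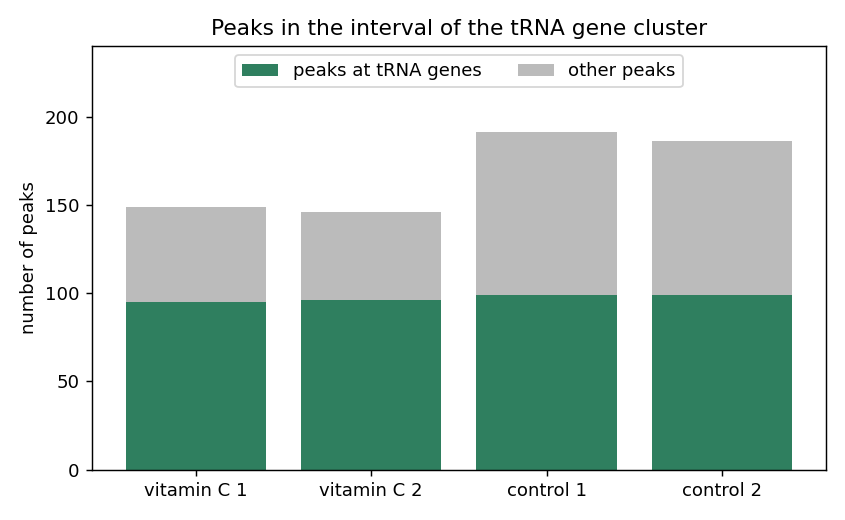
Number of peaks in the 3.7 Mb interval of the cluster in each library, split into peaks at tRNA genes (green) and other peaks (grey). The green part is 95 and 96 with vitamin C and 99 and 99 in the controls, while the grey part is 54 and 50 with vitamin C and 92 and 87 in the controls.

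Peaks at tRNA genes were among the strongest of each list. Their median percentile by the authors' fold within the list was 95.4 and 96.3 with vitamin C and 98.8 and 98.5 in the controls; ranks from lists of different length cannot be read as a change between conditions. Other peaks of the interval had median percentiles of 62.1 and 55.3 with vitamin C and 63.0 and 59.7 in the controls. The initiator methionine gene TRX-CAT1-2, which encodes the tRNA that starts each protein, ranked highest over the 4 lists, at percentiles of 99.96 and 99.88 with vitamin C and 99.5 and 99.9 in the controls. In each list the peak of TRX-CAT1-2 also met the window of 1 kb around an end of the histone gene H4C8. Its rank can therefore not be assigned to the tRNA gene alone. The lysine gene TRK-CTT2-4, the alanine gene TRA-AGC11-1 and the tyrosine genes TRY-GTA3-1 and TRY-GTA1-1 were also in the leading 10. The others there were TRT-AGT2-1 (threonine), TRL-CAA2-1 (leucine), TRI-AAT5-1 (isoleucine), and TRS-AGA2-1 (serine) with TRR-ACG1-1 (arginine), which share a peak. TRA-CGC1-1 (alanine) lies in the peak of TRI-AAT5-1 and tied with it for place 10. At the other end, the leucine gene TRL-TAA2-1 was kept at percentiles of 37.4 and 23.6 with vitamin C and 10.9 and 67.9 in the controls.

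The peaks at tRNA genes were narrower after vitamin C. The median width was 724 and 775.5 bp with vitamin C and 997 and 984 bp in the controls, so the groups did not overlap. The means were 749.75 ± 36.4 bp with vitamin C and 990.5 ± 9.19 bp in the controls (SD, n = 2 each), a difference of -241 bp with an exact two-sided permutation p of 0.333. Over all peaks of the lists the medians were 357 and 351 bp with vitamin C and 361 and 379 bp in the controls. Peaks at tRNA genes covered 74.6 and 76.4 kb with vitamin C and 98.1 and 103 kb in the controls. The narrowest peak of any kind measured 205 and 210 bp in the vitamin C lists and 210 and 217 bp in the control lists.

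At the 106 kept genes the same locus could be followed. The widest peak at the gene had a median of 763 and 791.5 bp with vitamin C and 1050 and 1083.5 bp in the controls, a difference of -290 bp (exact two-sided permutation p = 0.333). The mean vitamin C width was below the mean control width at each of the 106 genes. At 94 of them (88.7%) both vitamin C peaks were narrower than both control peaks, and at 0 both were wider. The share narrower in this way was 88.7% over all kept tRNA genes and 70.9% over the control regions met in all 4 lists. The median change per gene was -248 bp, or -21.9%.

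**Figure D3:**
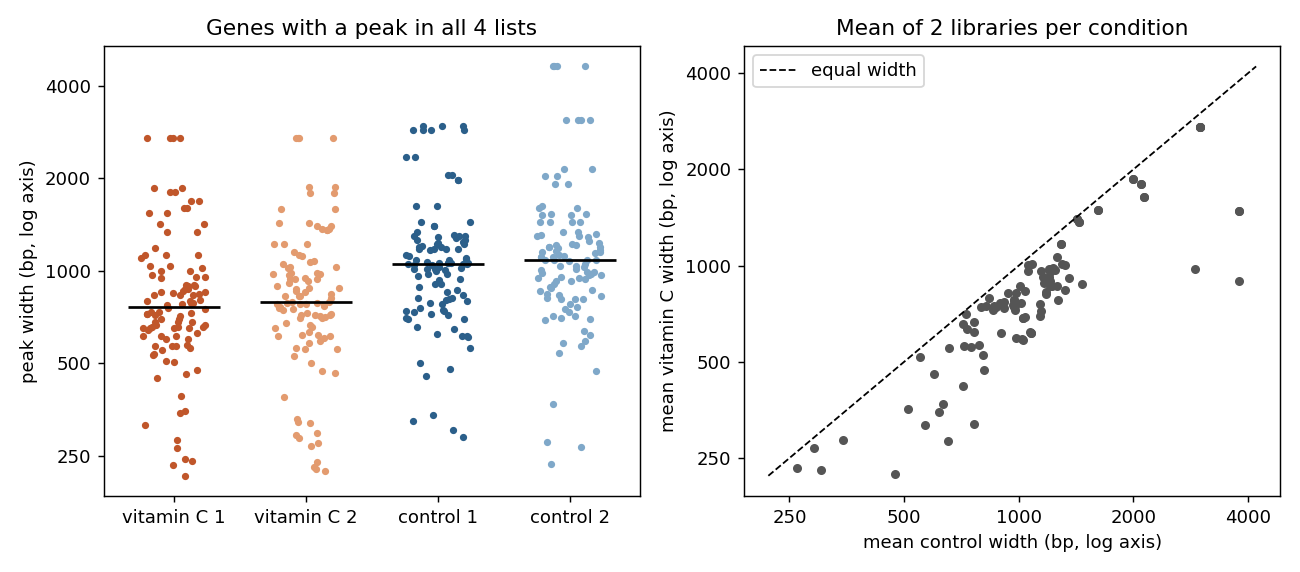
Left, width of the widest peak (bp, log axis) at each of the 106 kept genes in each library, with the median as a bar; right, the mean vitamin C width of each gene against its mean control width, with a dashed line at equal width. The medians are 763 and 791.5 bp with vitamin C and 1050 and 1083.5 bp in the controls, and each point on the right lies below the line.

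Peaks elsewhere narrowed too. Over the 5028 control regions met in all 4 lists, 70.9% were narrower with vitamin C without overlap and 0.975% were wider. At kept tRNA genes outside the cluster, 88.6% were narrower, with median widths of 896 and 812 bp with vitamin C and 1113 and 1112 bp in the controls. The difference between cluster and outside medians was -133 and -20.5 bp with vitamin C and -63 and -28.5 bp in the controls, which differed by -31 bp (exact two-sided permutation p = 1). The median change was -22.3% over the 91 cluster regions and -37.4% over the regions without tRNA genes in the strongest 10%. Among the 290 of these whose control width lay between 823 and 1285 bp, the quartiles of the kept cluster genes, it was -39.9%. Narrower without overlap were 89.0% of the cluster regions and 80.3% of the regions without tRNA genes in the strongest 10%. Among the 290 the share was 79.7%. These region comparisons were chosen after the data were seen. The regions without tRNA genes were picked by control strength, and the 290 also by control width, while the cluster regions were not. Picking by control values can favour smaller vitamin C widths, and its part in these differences was not tested.

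The 4 largest width differences were found at 1 place, where neighbouring genes shared a peak. A row of 4 genes, TRA-CGC1-1 (alanine), TRI-AAT5-1 (isoleucine), TRP-AGG2-2 (proline) and TRK-CTT2-4 (lysine), lay in 1 peak of 4629 bp in control replicate 2. In control replicate 1 the first 3 of them shared a peak of 2950 bp, and TRK-CTT2-4 had its own of 1180 bp. With vitamin C the alanine and isoleucine genes shared a peak of 1603 and 1361 bp. TRP-AGG2-2 then had a separate peak of 850 and 937 bp, and TRK-CTT2-4 one of 1102 and 851 bp. The stretch was thus split into 3 peaks in both vitamin C libraries, against 2 and 1 in the controls.

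The widest vitamin C peaks held a different row of 4 genes. TRQ-TTG3-1 and TRQ-TTG3-2 (glutamine), TRS-TGA3-1 (serine) and TRX-CAT1-3 (initiator methionine) shared a peak of 2710 and 2710 bp with vitamin C and 2869 and 3103 bp in the controls. This peak was not split in any library. In each of the 4 libraries 11 peaks met the widened window of more than 1 gene, holding 24 and 24 genes with vitamin C and 25 and 26 in the controls. At the 80 kept genes that were alone in their peak in all 4 lists, the median width was 705 and 759.5 bp with vitamin C and 966.5 and 972.5 bp in the controls. Narrower peaks were thus also measured at genes with no neighbour in the peak (exact two-sided permutation p = 0.333).

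Some members differed little in width. TRX-CAT1-2 measured 795 and 783 bp with vitamin C and 834 and 832 bp in the controls. The leucine gene TRL-CAG1-7 measured 711 and 702 bp with vitamin C and 740 and 714 bp in the controls. TRR-ACG1-2 (arginine) and TRV-CAC1-6 (valine) shared a peak at one end of HMGN4, a nucleosome-binding protein gene; it measured 1419 and 1371 bp with vitamin C and 1401 and 1442 bp in the controls, and here the groups overlapped. The narrowest kept peaks in the controls were at TRA-AGC2-1 (alanine), with 244 and 222 bp with vitamin C and 287 and 235 bp in the controls, close to the narrowest peaks of the lists.

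By isotype, the cluster held 19 kinds of tRNA gene, counting initiator and elongator methionine apart, with 38 kinds by anticodon. All members were kept for glutamine (9 of 9), initiator methionine (6 of 6), tyrosine (4 of 4), aspartate (3 of 3), proline (2 of 2) and tryptophan (2 of 2). The single genes for glutamate (TRE-CTC1-6), glycine (TRG-GCC2-3) and histidine (TRH-GTG1-5) were kept as well. Serine had 16 of 17 genes kept, arginine 10 of 11, threonine 8 of 9, lysine 5 of 6, leucine 8 of 10, isoleucine 8 of 13 and valine 6 of 9. The lowest shares were those of elongator methionine (2 of 7), phenylalanine (2 of 6) and alanine (12 of 27). Outside the row of 18 neighbouring genes without a peak in any list, where presence is uncertain, 2 of 2 elongator methionine and 12 of 17 alanine genes were kept, and phenylalanine stayed at 2 of 6. Among tRNA genes outside the cluster the order differed in part. There glutamine had 5 of 10 genes kept, aspartate 3 of 10 and phenylalanine 4 of 5. Proline had 17 of 18, serine 8 of 9, initiator methionine 2 of 2, elongator methionine 2 of 4 and alanine 5 of 11.

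**Figure D4:**
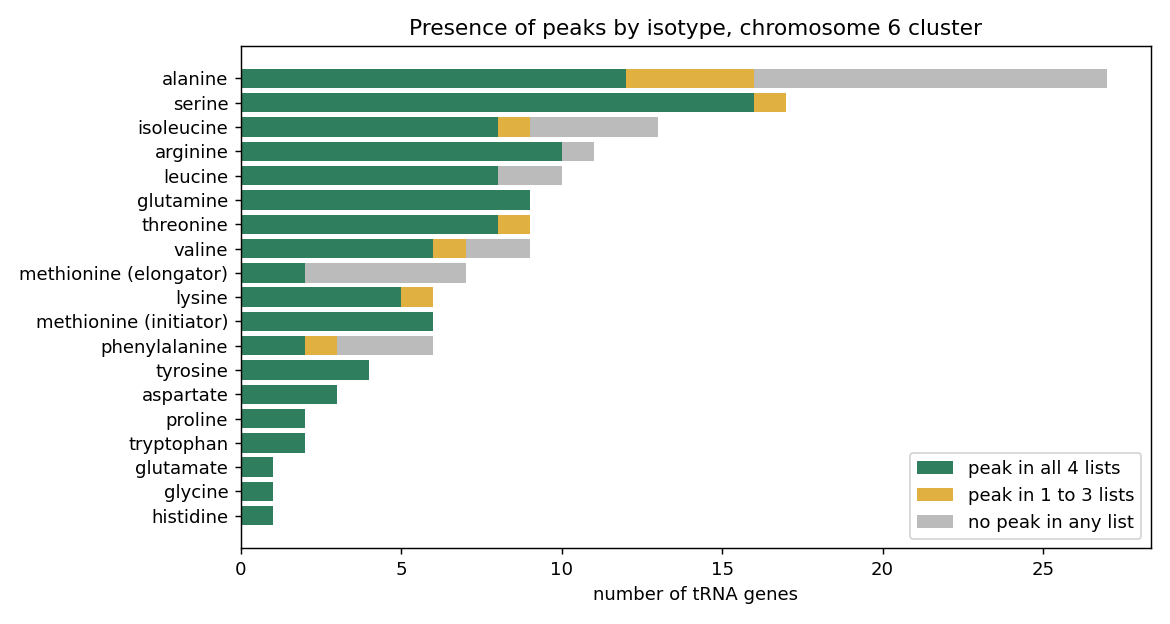
Number of cluster tRNA genes by isotype, split into genes with a peak in all 4 lists (green), in 1 to 3 lists (yellow) and in none (grey). Alanine has the most genes without a peak, 11 of 27, and the 9 glutamine genes are all green.

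Within alanine the counts differed by anticodon, which was not tested. All 3 genes with anticodon CGC were kept, while of the 19 with AGC 6 were kept and 11 had no peak, and of the 5 with TGC 3 were kept. Of the 11 AGC genes without a peak, 10 lie in that row, and outside it 6 of 9 AGC genes were kept. Initiator and elongator methionine genes share the anticodon CAT; 0 of 6 initiator genes had no peak, and the 5 of 7 elongator genes without one all lie in the same row. The initiator genes were wide in each list, at medians of 1462 and 1506 bp with vitamin C and 1534 and 1775 bp in the controls, and 4 of the 6 (TRX-CAT1-3, TRX-CAT1-4, TRX-CAT1-6 and TRX-CAT1-7) shared their peak with another tRNA gene in each list. Of the 2 kept elongator genes, TRM-CAT3-1 measured 281 and 285 bp with vitamin C and 612 and 695 bp in the controls. TRM-CAT3-2 measured 771 and 715 bp with vitamin C and 798 and 944 bp in the controls. Both were narrower in each vitamin C library than in either control.

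The strongest genes of single isotypes show the range. TRL-CAA2-1 (leucine) measured 785 and 777 bp with vitamin C and 1291 and 1251 bp in the controls. TRE-CTC1-6 (glutamate) measured 614 and 615 bp with vitamin C and 1049 and 1109 bp in the controls. TRP-CGG2-1 (proline) measured 679 and 763 bp with vitamin C and 1176 and 1105 bp in the controls. In these 3 both replicates of each condition lay close together and the groups were far apart. The groups lay closer at the next genes. TRY-GTA3-1 (tyrosine) measured 805 and 1150 bp with vitamin C and 1218 and 1216 bp in the controls. TRH-GTG1-5 (histidine) measured 895 and 830 bp with vitamin C and 960 and 1050 bp in the controls. TRG-GCC2-3 (glycine), in the peak of TRX-CAT1-7, measured 1122 and 1218 bp with vitamin C and 1059 and 1520 bp in the controls, where the groups overlapped.

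The genes without a peak were gathered in 1 place. An unbroken row of 18 genes at chr6:26673362-26828299 had no peak in any list, and no peak of any kind lay in these 155 kb. It held 10 alanine, 5 elongator methionine and 3 isoleucine genes, and 5 of the alanine genes bear the same symbol, TRNAA-AGC, at 5 positions. The nearest tRNA genes lay 78399 bp before and 192046 bp behind the row. Of the 126 members outside the row, 84.1% were kept and 10 had no peak. How reads from near-identical copies were placed is not given in the sources used here, so presence at such copies is uncertain. The other 10 were TRV-CAC6-1, TRV-AAC4-1, TRI-AAT9-1, TRR-TCT5-1, TRL-AAG4-1, TRL-AAG3-1, TRA-AGC7-1, TRF-GAA6-1, TRF-GAA5-1 and TRF-GAA4-1.

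In all, 10 members had peaks in some lists only. TRV-AAC6-1 (valine, chr6:28735429-28735500) had no vitamin C peak and control peaks of 630 and 640 bp, at percentiles of 92.1 and 78.5. TRK-TTT7-1 (lysine) had a peak of 210 bp in vitamin C replicate 2 alone, which lay beside the gene, and peaks of 760 and 825 bp in the controls. TRT-AGT4-1 (threonine) had 364 bp in vitamin C replicate 2 alone and 450 and 452 bp in the controls. TRF-GAA1-1 (phenylalanine) and TRA-TGC5-1 (alanine) had peaks in vitamin C replicate 1 and both controls. TRS-AGA3-1 (serine) had a peak in vitamin C replicate 2, at percentile 14.2, and in control replicate 1, at percentile 45.6. TRI-TAT3-1, TRA-AGC5-1 and TRA-AGC6-1 had a peak in control replicate 2 alone. TRA-TGC7-1 had one in control replicate 1 alone, of 210 bp, which lay beside the gene.

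Peak summits, the positions of highest signal, lay beside the genes more often than in them. The median distance from a summit to the midpoint of the nearest tRNA gene was 110 and 128 bp with vitamin C and 149.5 and 147.5 bp in the controls, a difference of -29.6 bp (exact two-sided permutation p = 0.333). The genes have a median length of 73 bp, a small part of peaks with median widths of 724 to 997 bp. Most positions within such a peak therefore lie outside the gene. The summit distance was not scaled to peak width, which was also smaller with vitamin C. Summits inside a tRNA gene numbered 7 and 7 with vitamin C and 11 and 9 in the controls. Over the 4 lists 87.9% of summits were more than 50 bp from the midpoint. With the strand known from the printed sequences, the summit at TRA-AGC2-2 lay 175.5 and 170.5 bp behind the midpoint with vitamin C and 226.5 and 176.5 bp behind it in the controls. At TRL-AAG2-2 it lay 124.5 and 163.5 bp before the midpoint with vitamin C and 132.5 and 162.5 bp before it in the controls. At TRI-AAT8-1 it lay 146.5 and 195.5 bp before the midpoint with vitamin C and 195.5 and 149.5 bp before it in the controls. At TRI-TAT2-2 the offsets were 61.5 and -7.5 bp with vitamin C and 22.5 and 42.5 bp in the controls, negative before the midpoint. The side thus differed between these 4 genes.

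**Figure D5:**
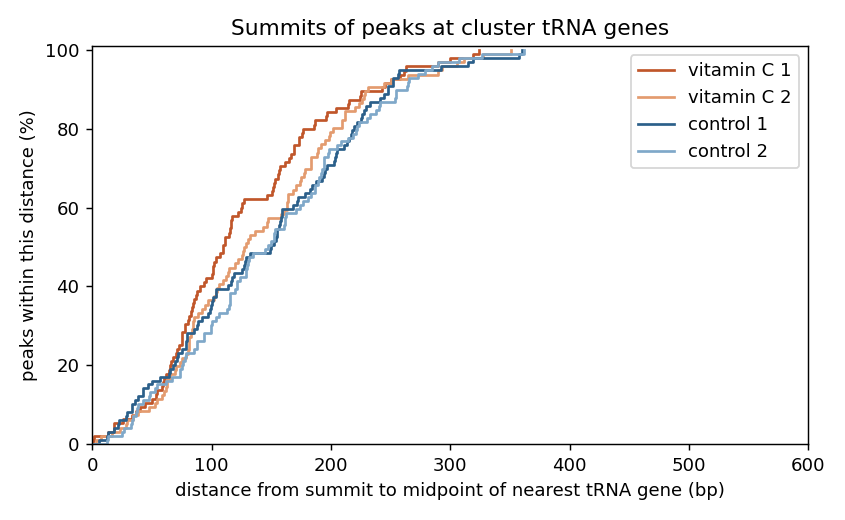
Share of peaks at cluster tRNA genes (percent) whose summit lies within a given distance (bp) of the midpoint of the nearest tRNA gene, 1 line per library. The medians are 110 and 128 bp with vitamin C and 149.5 and 147.5 bp in the controls.

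Few of these peaks reached a protein-coding gene. Peaks that met the body of one numbered 3 and 4 with vitamin C and 4 and 4 in the controls. In each list 2 peaks met the window of 1 kb around an annotated end of a protein-coding gene, at HMGN4 and at the histone gene H4C8. The H4C8 peak is that of TRX-CAT1-2, and a peak cannot be assigned to one of 2 genes that it meets. Of the 53 histone genes of the interval, 29 and 25 had a peak at a gene end with vitamin C and 32 and 31 in the controls.

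Other small RNA genes of RNA polymerase III were also kept. Of 21 listed, 17 had a peak in all 4 lists and 0 were lost or gained; RNU6-7 and RN7SL1 had peaks in some lists, and VTRNA2-1 and SNAR-A1 in none. RNY1, a Y RNA gene, VTRNA1-3, a vault RNA gene, and RNU6-2, a U6 gene of the spliceosome, ranked highest. RNY1 measured 623 and 913 bp with vitamin C and 1144 and 1577 bp in the controls. Not all kept genes were narrower in this way. RN7SL2 was wider, at 1006 and 753 bp with vitamin C and 341 and 700 bp in the controls. At RN7SK the groups overlapped, at 718 and 747 bp with vitamin C and 1457 and 647 bp in the controls. The median width over the kept genes was 697 and 753 bp with vitamin C and 893 and 776 bp in the controls.

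The protein-coding genes of the machinery lost peaks in part. Both controls showed a peak at an end of 4638 protein-coding genes, and of these 47.2% were kept and 29.9% lost. Of 18 listed subunit genes of RNA polymerase III, 12 were open in both controls, with 7 kept and 1 lost, POLR2F, a subunit shared by the nuclear polymerases; POLR2E, POLR3E and POLR3C were the strongest kept. Of 19 genes of its transcription factors, 11 were open in both controls; 3 were kept (SNAPC5, GTF3C4 and BRF2) and 5 were lost, namely SNAPC1, SNAPC2, SNAPC3, SNAPC4 and GTF3C5. SNAPC1 to SNAPC4 encode parts of the SNAPc complex, which serves U6-type promoters and not the internal promoter described above. GTF3C5 encodes a subunit of TFIIIC. Of 28 genes of tRNA processing and export, 12 were open in both controls; 5 were kept, RPP14, PUS1 and POP4 leading, and 5 were lost, among them TRNT1, which adds the CCA end, XPOT, the export receptor of tRNA, and TRMT1, a tRNA methyltransferase. The control peaks of the named lost genes differed widely in rank. They ran from percentiles of 0.57 and 31.6 at POLR2F to 82.9 and 76.7 at TRNT1. The control peak lists were also longer than those with vitamin C. The gene lists were not compared with each other by a test.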

How the data were processed

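KAS-seq peaks of 4 labelled HEK293T libraries were used, 2 per condition, each with its own list. The submitters' processing notes name MACS2 2.2.7.1 for peaks, Bowtie2 2.4.5, cutadapt, Trim Galore, deepTools, bcl2fastq 2.19 and the build hg38; neither the settings nor the handling of reads that map to several places is given in the sources used here. The deposited lists hold each peak's position, summit, score, fold enrichment (a linear ratio, used to rank peaks within a list), −log10 p and −log10 q as the authors' values, without pooling of replicates. Peaks outside chromosomes 1 to 22 and X were dropped. Gene positions came from RefSeq GRCh38.p14.

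Presence, widths and summit distances were compared over libraries by exact permutation tests (Python 3.11.15, scipy 1.17.1, pandas 2.3.3, numpy 2.4.6). The labelled depth was solved from fold and p, which matched for 99.8% to 100% of peaks, with the signal of vitamin C replicate 1 scaled by 0.776. Presence calls were tested on simulated lists. Named genes were the strongest of each isotype, the 10 strongest kept genes, lost genes, those in the widest, narrowest and most shared peaks, up to 3 kept and 3 lost of each other list, and coding genes met; other genes, and the control regions, were chosen after their values were seen. The members and lists were chosen with earlier results of these data known. Alternatives were other windows, a stricter q, equal list lengths, summits, merged loci, each library left out and replicate number as a block. The result for 1 marker gene is not reported here.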

Additional observations from a re-analysis of the deposited data

How the results depend on the processing

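The narrowing held its direction under each alternative run that could change it, while small differences in presence did not. The difference in median width of peaks at tRNA genes was -266.5 to -215 bp over the 11 alternatives and that at kept genes -312 to -262 bp over 12. The kept genes, 106 in the main run, numbered 83 to 108 over 10 alternatives. The 83 were found with summits in the window. The 108 were found without a vitamin C library, where fewer lists had to hold a peak. The difference in median summit distance was -38.5 to -18.75 bp over 11 alternatives. In lists of equal length the difference in genes with a peak was 0 and the log2 ratio of peaks at tRNA genes 0.0228. The difference between cluster and outside shares was -2.19 points at −log10 q of at least 5, -0.93 points with summits in the window and -0.14 to 1.22 points when each library was left out. Lost genes numbered 3 with a window of 0 bp and 2 to 4 when each library was left out, since 1 library then stands for its group. With summits in the window 1 gene was gained. Apart from leaving out a library, the cause was not tested. With replicate number as a block (smallest exact p 0.5) the differences were -241 bp for width, -290 bp at kept genes and -5 genes. These equal the main values whatever the pairing. The blocks are counted among the alternatives but could not change a direction. The replicate numbers share no stated source. Width differences between replicates 1 and 2 correlated between the conditions at 0.02 over 5028 control regions and -0.16 over the 106 kept genes. Pairing the crossed numbers, added after seeing the data, had to give the same differences again. The lists give no reads per gene, so a gene without a peak had no signal past the threshold of that list.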

Other observations

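Peak widths at kept genes differed along the cluster. They were counted per gene, so a shared peak enters once for each of its genes. The rows of 4 genes described above, which shared wide peaks, lie between 26 and 27 Mb. Between 26 and 27 Mb the 26 kept genes had median widths of 1052 and 1136.5 bp with vitamin C and 1350 and 1483.5 bp in the controls. Between 27 and 28 Mb the 50 kept genes had 781.5 and 830 bp with vitamin C and 1060 and 1095 bp in the controls. Between 28 and 29 Mb the 30 kept genes had 606 and 609 bp with vitamin C and 740 and 846.5 bp in the controls, and 8 of the 10 genes with a peak in 1 to 3 lists lay there. The division into 1 Mb ranges was made with the values known, and genes are not independent replicates.

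Of 7 annotated tRNA pseudogenes in the interval, TRS-ACT1-1 and TRA-TGC9-1 had a peak in all 4 lists and TRF-GAA11-1 in both controls and neither vitamin C list. Of 80 tRNA pseudogenes elsewhere, 5 had a peak in all 4 lists. Of 11 tRNA genes on chromosome 6 outside the interval, 4 were kept.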
